A study of Mus musculus with 6 samples.

Results

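The IGF receptors and binding proteins were the 10 genes Igf1r, Igf2r, Insr, Irs1, Irs2, Igfbp2, Igfbp3, Igfbp5, Igfbp6 and Igfbp7, taken by gene name from the 49671 genes of the table, with 1 row for each name. They were followed in basal keratinocytes of mouse ear epidermis, sorted alive for integrin alpha 6 and against CD34, a marker of the hair follicle bulge. The groups were intact males, females and castrated males of CD1, an outbred stock, with 2 libraries each. Each library held polyA RNA from 100000 cells pooled from 2 mice of 1 litter. No transgene or mutant allele is named for any group, and the ages of the mice, the time since castration and any hormone levels are not stated. A p-value therefore sets a difference between groups against the spread of such pools, not of single mice. Litter and group cannot be told apart. In such bulk samples fewer cells of a type and less RNA per cell cannot be told apart either.

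Insulin-like growth factors reach skin cells from the blood and from the dermis and act on keratinocytes through receptor tyrosine kinases, which phosphorylate docking proteins and thereby recruit PI3K and AKT. Secreted binding proteins hold the growth factors outside the cell and decide how much of them reaches the receptor. In the epidermis this pathway is known for its support of basal cell growth and survival, and AKT keeps the FOXO transcription factors out of the nucleus.

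The libraries held 8412487 to 9648154 reads, and 1 read was worth 0.103 to 0.128 CPM after scaling (CPM, reads per 1000000 reads of the library size adjusted by TMM, a trimmed mean of log ratios). The 7 basal keratinocyte markers summed to 41339 to 48584 CPM per library, led by Krt14, Krt15 and Krt5, with Krt15 lowest in the female libraries (9249 and 6323 CPM, against 10587 to 14759 in the others). Of 8 fibroblast genes, Dpt had no read, and Col1a1, Col3a1, Pdgfra and Lum did not exceed 0.747 CPM in any library. Col1a2 (2.30 to 5.80 CPM) and Dcn (4.47 to 10.6 CPM in 5 libraries and higher in male replicate 1) had reads in every library, and with Thy1 the list summed to 23.8 to 155 CPM. The lists of Merkel cells and of adipocytes and cartilage stayed at or below 0.534 and 1.81 CPM in sum. Female replicate 2 stood apart in its weight on the results: of 15413 genes tested, 940 were called between females and males with all libraries and 65 without it (limma, adjusted p below 0.05).

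The promoters of the 3 binding proteins highest per length of exon are shown because Igfbp2 and Igfbp6 were called and Igfbp3 had the opposite sign. Each window runs from 250 bases before to 50 bases after a RefSeq start (GRCm38.p6), 5′ to 3′ on the strand of the gene. Igfbp2 lies at chr1:72824230-72824529 on the plus strand, Igfbp6 at chr15:102143936-102144235 on the plus strand, and Igfbp3 at chr11:7213874-7214173 on the minus strand. Capitals mark every match, on either strand, to the TATA box (TATAAA), the GC box (GGGCGG), the CCAAT box (CCAAT), the E-box (CACGTG), the FOXO motif (GTAAACA), the single arm of the androgen and glucocorticoid receptor palindrome (TGTTCT), that palindrome itself (both arms around 3 bases of any kind) or the estrogen receptor palindrome (GGTCA, 3 such bases, then its reverse complement).
Igfbp2: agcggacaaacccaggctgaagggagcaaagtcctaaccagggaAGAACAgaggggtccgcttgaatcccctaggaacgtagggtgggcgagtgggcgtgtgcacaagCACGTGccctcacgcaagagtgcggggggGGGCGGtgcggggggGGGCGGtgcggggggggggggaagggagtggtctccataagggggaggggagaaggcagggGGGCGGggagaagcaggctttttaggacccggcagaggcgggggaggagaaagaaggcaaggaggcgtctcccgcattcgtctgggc
Igfbp6: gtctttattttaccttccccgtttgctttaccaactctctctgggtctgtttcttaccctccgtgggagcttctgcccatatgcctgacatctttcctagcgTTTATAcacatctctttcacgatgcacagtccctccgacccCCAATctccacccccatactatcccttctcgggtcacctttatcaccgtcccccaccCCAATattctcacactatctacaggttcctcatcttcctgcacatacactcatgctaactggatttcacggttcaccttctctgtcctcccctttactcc
Igfbp3: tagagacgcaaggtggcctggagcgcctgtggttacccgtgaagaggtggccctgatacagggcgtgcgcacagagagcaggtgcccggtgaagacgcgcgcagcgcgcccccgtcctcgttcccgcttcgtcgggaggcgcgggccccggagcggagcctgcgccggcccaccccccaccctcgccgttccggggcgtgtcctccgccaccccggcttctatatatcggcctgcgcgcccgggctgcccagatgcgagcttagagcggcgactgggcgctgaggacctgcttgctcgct

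The 3 windows differed in their motifs. That of Igfbp2 held 3 GC boxes, 1 E-box and 1 single arm of the androgen and glucocorticoid receptor palindrome, here in reverse complement. That of Igfbp6 held 1 TATA box, also in reverse complement, and 2 CCAAT boxes. It had 49.7% G and C against 67% in Igfbp2 and 71.7% in Igfbp3. None of the 8 motifs matched letter for letter in the Igfbp3 window, which does hold the similar string tatatat. The place of a match within a window was not scored. Among 32851 promoter windows of this length, 35.7% held the GC box, 37.4% the CCAAT box, 13.6% the TATA box, 7.15% the E-box and 19% the single arm. The FOXO motif was in 3.65%, the estrogen receptor palindrome in 0.07% and the androgen and glucocorticoid receptor palindrome in 0.00913%, and none of the 3 matched in the windows printed. A match is a string of letters and not a binding site. Of the 10 members 9 had a window, and Insr had none. The second RefSeq window of Igfbp2 is not shown, and the RefSeq start of Igfbp6 differs from the GENCODE gene start at 102144362.

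Per length of exon the binding proteins Igfbp6 and Igfbp3 stood highest among the 10 genes. The level, in CPM per kb of exon, averaged 38.2 over the 6 libraries for Igfbp6 (range 19.3 to 56.6) and 26.6 for Igfbp3 (22.2 to 32.7). Igfbp2 followed at 11.3 (4.62 to 15.9), Irs1 at 10.5 (3.8 to 16.6) and Igfbp7 at 7.21 (5.63 to 8.75). The lowest values of Igfbp6 and Igfbp3 lay above the highest of every other gene. Between these 2, and among Igfbp2, Irs1 and Igfbp7, the ranges overlapped, so the order there was not fixed across libraries. The receptors were lower, Igf1r at 3.84 (3.67 to 4.37), Igf2r at 2.05 (1.94 to 2.14) and Insr at 1.01 (0.715 to 1.12). Igfbp5 at 2.04 (1.0 to 2.81) overlapped both Igf2r and Insr. Irs2 was lowest, at 0.555 (0.482 to 0.73), and its highest library lay just above the lowest of Insr.

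**Figure D1:**
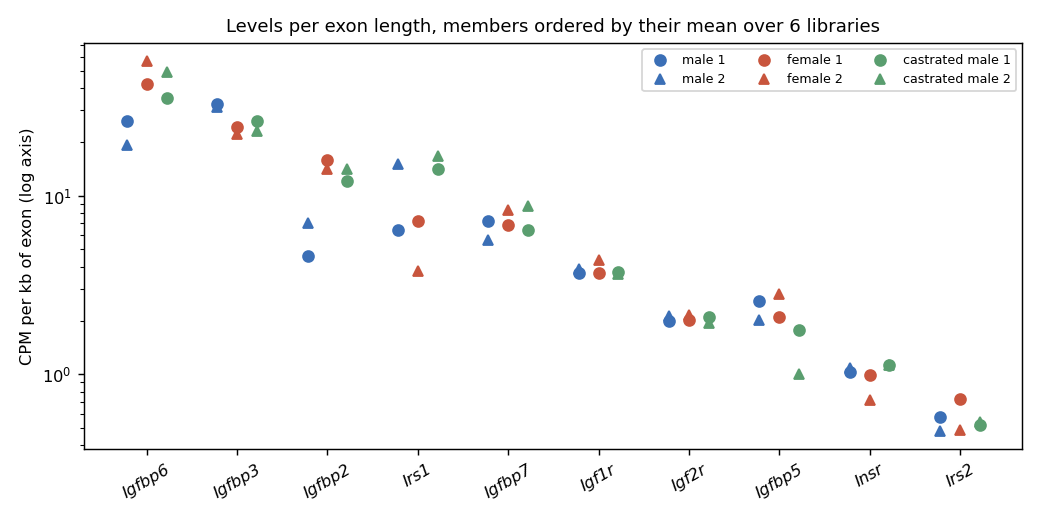
Level of each gene in CPM per kb of exon (log axis) in the 6 libraries, with the genes ordered by their mean. Circles are replicate 1 and triangles replicate 2 of males (blue), females (red) and castrated males (green). Igfbp6 and Igfbp3 are at the top (means 38.2 and 26.6), Irs2 is at the bottom (0.555), and the receptors Igf1r and Igf2r hardly spread.

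Of the 10 genes, all of which passed the filter on low values, Igfbp2 and Igfbp6 were called between females and males and no other was. Both rose in females, by 2.55-fold and 2.14-fold, so 2 of 10 were called where 6.10% of all genes tested were. Among all genes, 3.70% were called higher in females and 2.39% lower. The median log2 fold change was 0.08 over the 10 genes and -0.01 over all 15413. In 4 of the 10 (Insr, Igfbp2, Igfbp3 and Igfbp6) the female and male libraries did not overlap, which was so for 53.9% of all genes.

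**Figure D2:**
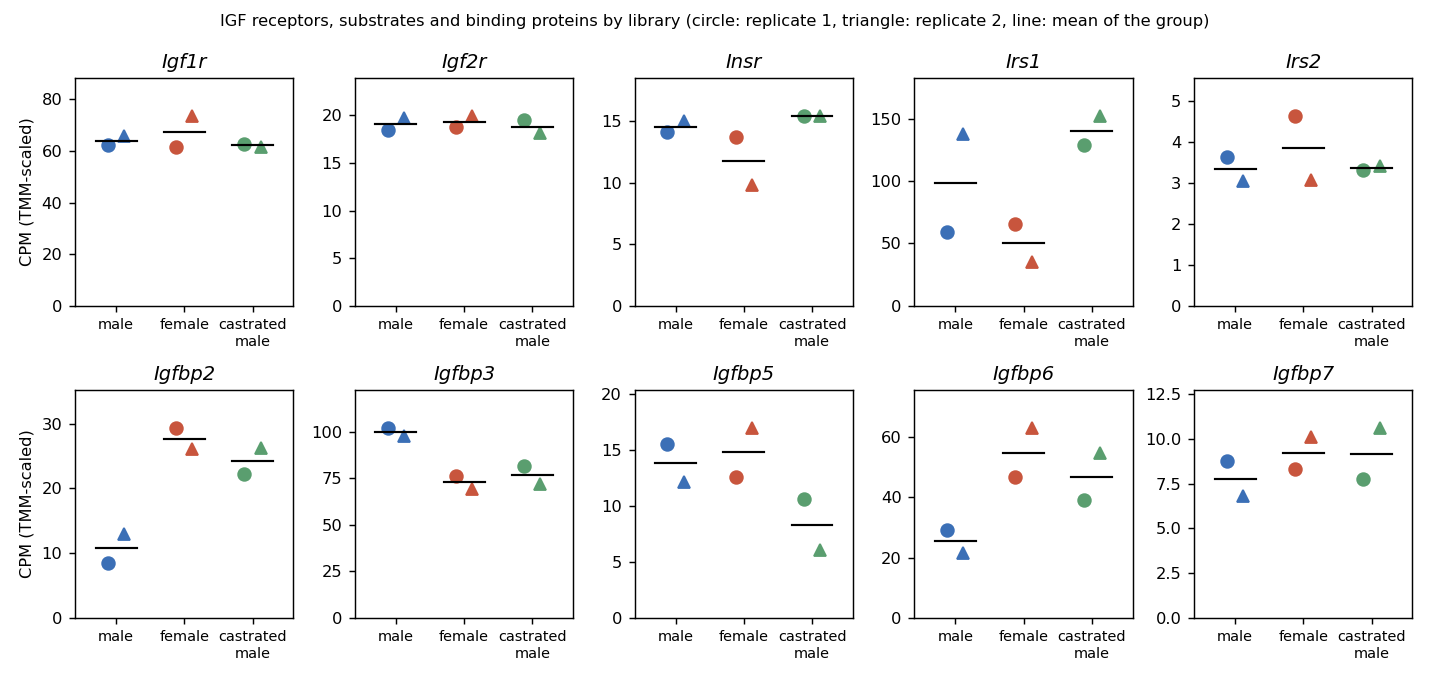
CPM of each gene in each library, 1 panel per gene with its own axis from 0; circles are replicate 1, triangles replicate 2 and lines the group means (n = 2). Igfbp2 and Igfbp6 are lowest in both male libraries and Igfbp3 is highest there, while Igf1r and Igf2r lie close to level in the 3 groups.

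Igfbp2 encodes a secreted binding protein of both IGFs that also carries an integrin-binding sequence. The gene lies on chromosome 1, 72824503 to 72852474 (GRCm38, plus strand). It gave 8.54 and 13.0 CPM in male pools, 29.3 and 26.1 in female pools and 22.2 and 26.2 in castrated pools. Both male libraries were lowest, and the lowest female library was about level with the highest castrated one. The log2 fold change was 1.35 ± 0.22 (SE) for females against males (limma adjusted p = 0.0172). For castrated against intact males it was 1.15 ± 0.22, with the groups apart, but it did not pass (adjusted p = 0.266, unadjusted 0.000673). Castrated males and females did not differ past the threshold (log2 fold change -0.19, 95% interval -0.70 to 0.32, adjusted p = 0.648).

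Igfbp6 encodes a binding protein that prefers IGF2 over IGF1, and lies on chromosome 15, 102144362 to 102149511 (plus strand). It gave 29.3 and 21.5 CPM in male pools, 46.9 and 63.0 in female pools and 39.2 and 54.7 in castrated pools. Again both male libraries were lowest, and those of females and castrated males interleaved. Females exceeded males by a log2 fold change of 1.10 ± 0.23 (adjusted p = 0.0300). Castrated against intact males gave 0.87 ± 0.23 (adjusted p = 0.561), and castrated males against females -0.23 (95% interval -0.75 to 0.29, adjusted p = 0.590).

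Both calls rested on few libraries and on the settings of the fit. With all 6 libraries both were lost without a filter on low values (adjusted p = 0.0716 for Igfbp2 and higher for Igfbp6) and without an intensity trend (0.0711 for Igfbp2 and 0.106 for Igfbp6). Without female replicate 2 the log2 fold change of Igfbp2 was 1.44 with adjusted p = 0.112, and that of Igfbp6 was 0.89 with adjusted p = 0.242. Without male replicate 2 Igfbp6 gave 0.88 (adjusted p = 0.0944), and leaving out either castrated library, whose spread the fit pools, gave 1.10 with adjusted p = 0.0566 and 0.0564. Igfbp2 stayed called when any library other than female replicate 2 was left out, with values from 1.06 to 1.64. In castrated against intact males Igfbp2 was called without male replicate 2 (1.45, adjusted p = 0.0334).

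**Figure D3:**
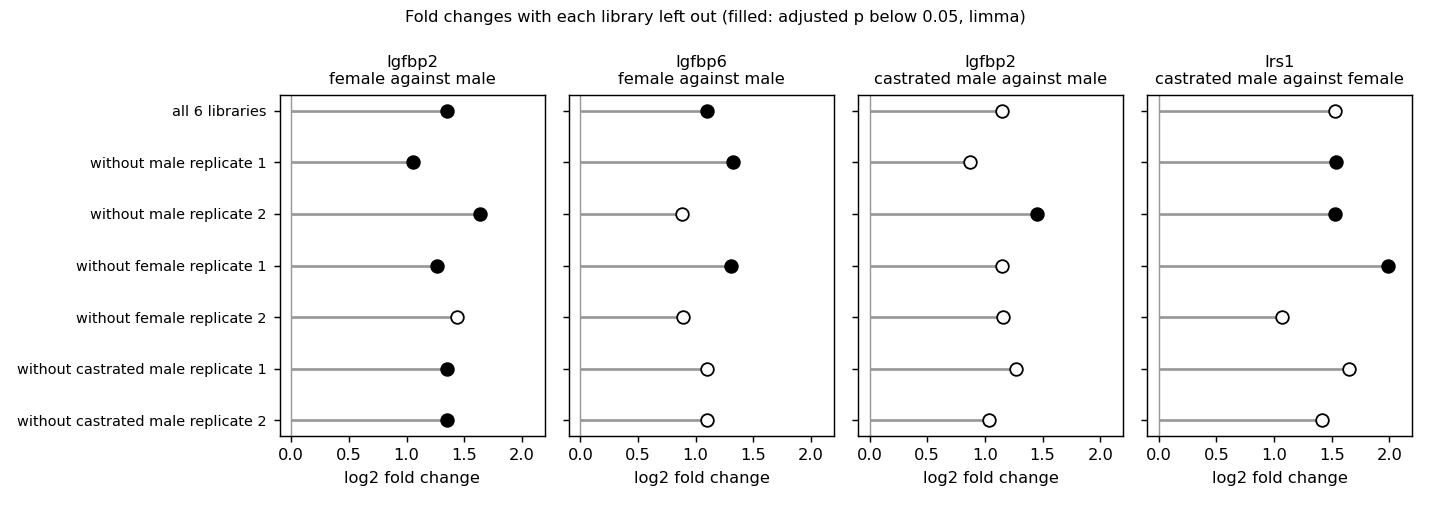
Log2 fold change (horizontal axis) with all 6 libraries and with each library left out in turn, for Igfbp2 and Igfbp6 in females against males, Igfbp2 in castrated against intact males and Irs1 in castrated males against females; filled points have an adjusted p below 0.05 (limma). No point reaches 0, while the calls come and go with single libraries: without female replicate 2 none of the 4 panels has a filled point.

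Igfbp3 encodes the main carrier of IGFs in blood and is a known product of basal keratinocytes (chromosome 11, 7206086 to 7213923, minus strand). It gave 102 and 97.9 CPM in male pools, 76.3 and 69.5 in female pools and 81.9 and 72.1 in castrated pools. Here the male libraries were the highest, and the other groups overlapped. The log2 fold change of -0.46 ± 0.13 for females against males missed the threshold (adjusted p = 0.0707). For castrated against intact males it was -0.38 ± 0.13 (adjusted p = 0.748), and for castrated males against females 0.08 (95% interval -0.21 to 0.37).

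Ratios of reads within a library do not depend on the scaling between libraries. There were 0.0833 and 0.133 Igfbp2 reads per Igfbp3 read in male pools, 0.384 and 0.375 in female pools and 0.271 and 0.363 in castrated pools. Igfbp6 reads per Igfbp3 read were 0.286 and 0.219 in male pools, 0.614 and 0.906 in female pools and 0.478 and 0.759 in castrated pools. The male libraries were lowest in both ratios. Of the reads per base of the 5 binding proteins, Igfbp3 took 44.5% and 47.9% in male pools, 26.7% and 21.3% in female pools and 32.1% and 24% in castrated pools. Igfbp6 took 35.9% and 29.6%, 46.1% and 54.4%, and 43.2% and 51.2% in the same order. The largest share thus belonged to Igfbp3 in both male libraries and to Igfbp6 in the other 4. The comparisons of females and of castrated males with intact males share the male libraries, so their common direction is not independent.

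Igfbp5, a binding protein with affinity for matrix, is the tail-to-tail neighbour of Igfbp2 on chromosome 1 (72857932 to 72874884, minus strand), with 5457 bases between them. It gave 15.5 and 12.1 CPM in male pools, 12.6 and 16.9 in female pools and 10.6 and 6.03 in castrated pools. The castrated libraries were lowest, and males and females overlapped. No comparison passed, with log2 fold changes of 0.09 ± 0.29 for females against males, -0.74 ± 0.29 for castrated against intact males and -0.83 ± 0.29 for castrated males against females (adjusted p = 0.876, 0.803 and 0.157). The neighbours thus differed in pattern, with 0.552 and 1.08 Igfbp2 reads per Igfbp5 read in male pools, 2.33 and 1.55 in female pools and 2.1 and 4.34 in castrated pools.

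Igfbp7 encodes a secreted protein that binds IGFs weakly and is known from vessel walls and senescent cells (chromosome 5, 77349240 to 77408041, minus strand). It gave 8.75 and 6.80 CPM in male pools, 8.31 and 10.1 in female pools and 7.75 and 10.6 in castrated pools, and all 3 groups overlapped. Its log2 fold changes were 0.23 ± 0.25, 0.22 ± 0.25 and -0.02 ± 0.25 in females against males, castrated against intact males and castrated males against females, none past the threshold (adjusted p = 0.611, 1.00 and 0.981). Its exons share 85 bases with Polr2b on the other strand, whose reads there would be mixed with its own in a count that ignores strand. The 7 endothelial markers summed to 5.58 to 14.4 CPM, highest in male replicate 1.

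None of the 3 receptor genes was called in any comparison. Igf1r, the receptor tyrosine kinase of IGF1 and IGF2 (chromosome 7, 67952827 to 68233668), gave 62.1 and 65.6 CPM in male pools, 61.6 and 73.4 in female pools and 62.8 and 61.5 in castrated pools. Its 95% interval for females against males ran from -0.23 to 0.38 on the log2 scale (log2 fold change 0.08), and from -0.35 to 0.27 for castrated against intact males (-0.04). Igf2r, the mannose 6-phosphate receptor that carries IGF2 to lysosomes and has no kinase (chromosome 17, 12682406 to 12769664), lay between 18.1 and 19.9 CPM in all 6 libraries. Its intervals ran from -0.36 to 0.40 and from -0.40 to 0.36 in the same comparisons. Their upper bounds lie below the lower bound of Igfbp2 in females against males (0.84).

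Insr encodes the insulin receptor, which also forms hybrids with the IGF1 receptor (chromosome 8, 3122061 to 3279617). It averaged 14.5 ± 0.655 CPM (SD, n = 2) in male pools and gave 13.7 and 9.83 in female pools and 15.4 and 15.4 in castrated pools. Female replicate 2 alone was low. The log2 fold change for females against males was -0.31 ± 0.21 (adjusted p = 0.404), for castrated against intact males 0.08 ± 0.21 (adjusted p = 1.00) and for castrated males against females 0.39 ± 0.21 (adjusted p = 0.323).

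Irs1, a docking protein that insulin and IGF1 receptors phosphorylate, had the largest standard error of the 10 genes. It lies on chromosome 1, 82233101 to 82291416 (minus strand), and gave 59.0 and 138 CPM in male pools, 65.8 and 34.7 in female pools and 129 and 152 in castrated pools. Castrated males and females did not overlap, whereas the male libraries reached into both. The log2 fold change of castrated males against females was 1.53 ± 0.39, just short of the threshold (adjusted p = 0.0836). For females against males it was -0.91 ± 0.39 (adjusted p = 0.188) and for castrated against intact males 0.62 ± 0.39 (adjusted p = 0.945).

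Single libraries set the values of Irs1. Without male replicate 1 it was called lower in females than in males (-1.52, adjusted p = 0.0356), and without male replicate 2 that value was -0.30 (adjusted p = 0.635). For castrated against intact males the same omissions gave 0.02 and 1.24. Castrated males exceeded females past the threshold without male replicate 1 (1.54, adjusted p = 0.0209), male replicate 2 (1.53, adjusted p = 0.0211) or female replicate 1 (1.99, adjusted p = 0.0435). Without female replicate 2 the value was 1.07 (adjusted p = 0.519). The exons of Irs1 share 2822 bases with Gm9747 on the other strand, which is the whole exon length of Gm9747. Reads of Gm9747 came to 49.2% to 56.4% of those of Irs1 in each library. In a count that ignores strand, reads in the shared bases cannot be assigned to 1 gene of the pair, and the strand setting is not stated.

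Irs2, the docking protein of the insulin receptor in liver and beta cells, was the least abundant of the 10 (chromosome 8, 10984681 to 11008458). It had 24 to 45 reads per library, or 3.05 to 4.62 CPM, and all groups overlapped. The log2 fold change for females against males was 0.16, with a 95% interval from -0.52 to 0.83, so that differences within these bounds were not excluded.

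**Figure D4:**
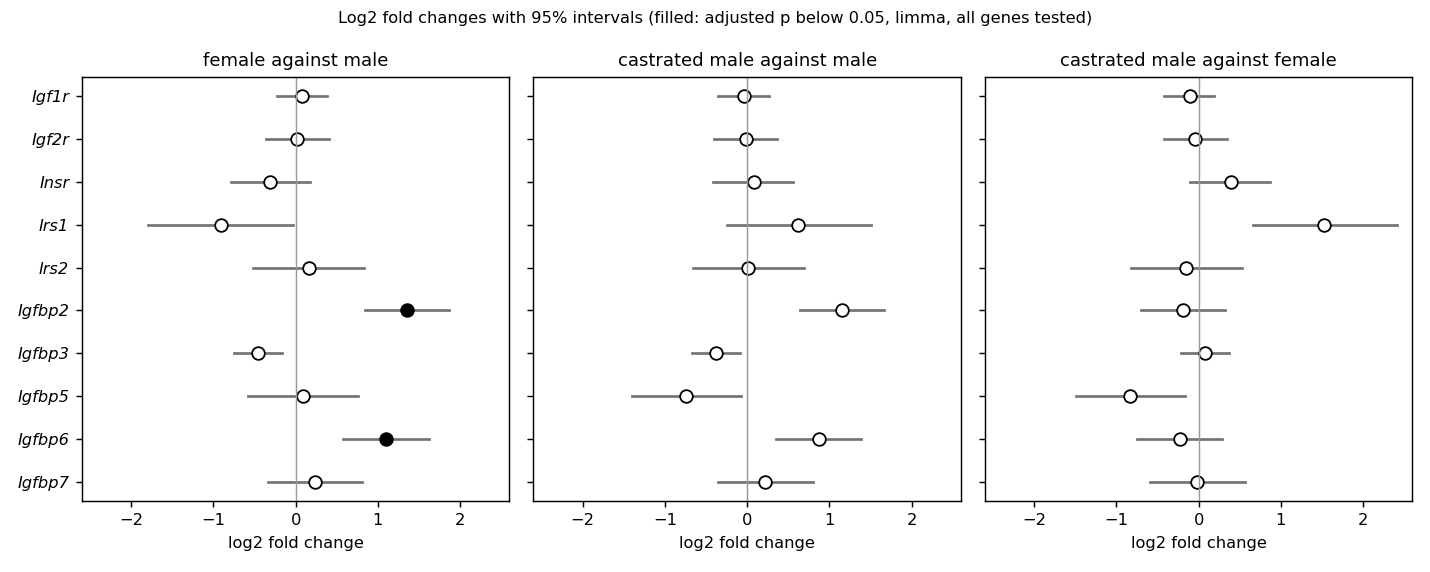
Log2 fold changes (points) with 95% intervals (lines) of the 10 genes in the 3 comparisons; filled points have an adjusted p below 0.05 over all genes tested (limma). Igfbp2 and Igfbp6 in females against males are the filled points, and the shortest intervals are those of Igfbp3, Igf1r and Igf2r.

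In castrated against intact males 0 of the 10 genes were called by limma, beside 0.0389% of all genes. Of the 10, 4 had an unadjusted p under 0.05 (Igfbp2, Igfbp3, Igfbp5 and Igfbp6), as had 5.94% of all genes. The groups did not overlap in 5 of the 10 (these 4 and Insr), against 35.4% of all genes. In castrated males against females 0 of the 10 were called by limma, beside 1.68% of all genes, with 2 at an unadjusted p under 0.05 (Irs1 and Igfbp5), as had 21.7% of all genes. The groups did not overlap in 3 of the 10 (these and Insr), against 57.9% of all genes.

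Markers of other cells moved with the female libraries in part. The 6 Langerhans cell markers summed to 1082 and 2335 CPM in females and 374 to 463 in the other 4 libraries. In females against males H2-Aa, H2-Ab1 and Cd74 were called, while Cd207, the langerin gene that defines these cells, stood at 5.33 and 6.90 CPM in females and 6.62 and 8.44 in males. Epcam, which was not called, went with the called genes, at 13.4 and 15.3 CPM in females and 10.8 and 6.69 in males. For Itgax females and males overlapped. The 7 bulge and outer root sheath markers summed to 847 and 1410 CPM in females and 536 to 687 elsewhere, and none was called. Krt17 carried this difference, with 726 and 1305 CPM in females and 384 to 567 elsewhere. Lgr5 went the other way, with 20.3 and 15.6 CPM in females and 31.8 and 27.3 in males. For Cd34, Lhx2, Krt75, Sox9 and Nfatc1 females and males overlapped. The 7 suprabasal keratinocyte markers summed to 919 and 704 CPM in male pools, 1199 and 1547 in female pools and 1165 and 1259 in castrated pools. In this sum the male libraries were the lowest too, as for Igfbp2 and Igfbp6, and of the 7 Krt1 and Krtdap were called higher in females than in males. Krtdap was the largest part of the sum (439 to 969 CPM). For Krt10, Flg and Ivl the male libraries were also lowest, but for Sbsn and Lor females and males overlapped. Thy1, which the fibroblast and T cell lists share, lay between 8.92 and 144 CPM and neither list had a called gene. The part of these cells in the results was not tested. Longer genes tended to be lower in females: log2 fold changes against males and exon length had a Spearman rho of -0.132 across 15362 genes, which are not independent, and the trend within a library was strongest in female replicate 2 (-0.147). Igfbp6 and Igfbp2 have 1112 and 1847 bases of exon, Irs1 has 9144 and Insr 13746. Other members did not follow length: Igf1r, the longest with 16791 bases, gave a log2 fold change of 0.08, and Igfbp3, with 3130, gave -0.46. With the length trend removed in each library, Igfbp2 and Igfbp6 were still called in females (1.31 and 1.02, adjusted p = 0.0182 and 0.0343), and Irs1 gave -0.83.

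Ligand transcripts were scarce in the sorted cells. Igf1 had 4 reads in male replicate 1, 1 in female replicate 1 and 0 in the other 4 libraries, where 3 reads, the limit a count of 0 allows, were worth 0.341 to 0.383 CPM. Ins1 and Ins2 had no read in any library, which allows up to 0.383 CPM by the same limit. These limits cover counting error only. Igf2 gave 2.13 and 5.16 CPM in male pools, 2.15 and 0.511 in female pools and 5.58 and 2.62 in castrated pools, with 4 to 49 reads per library. No comparison of Igf2 passed, the largest being castrated males against females (log2 fold change 1.41 ± 0.56, adjusted p = 0.193). Its exons share 3596 bases with Gm49394 on the same strand. Gm49394 has no row in the table, so reads of either gene in those bases could count as Igf2.

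None of the other binding protein genes was called. Igfbp4 gave 18.0 and 8.56 CPM in male pools, 21.4 and 18.1 in female pools and 10.4 and 13.0 in castrated pools, with log2 fold changes of 0.64 ± 0.32 for females against males and -0.74 ± 0.32 for castrated males against females (adjusted p = 0.251 and 0.221). Igfals, the acid-labile subunit that forms a circulating complex with Igfbp3, stayed between 0.718 and 3.07 CPM. Igfbp1, which lies 3539 bases from Igfbp3, had 1 read in all, and Igfbpl1 and the receptor gene Insrr had none.

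Of 97 further pathway genes 77 were tested, and 7 of them were called in females against males, beside the 6.10% of all genes given above. Grb7, Socs3 and Bnip3 rose, and Gab1, Pik3r1, Ddit4 and Pik3ip1 fell. The median log2 fold change of the 77 was -0.02. In castrated against intact males 0 of the 77 were called by limma, where 0.0389% of all genes were, with 8 at an unadjusted p under 0.05. In castrated males against females 1 of the 77 was called, Socs3, where 1.68% of all genes were.

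**Figure D5:**
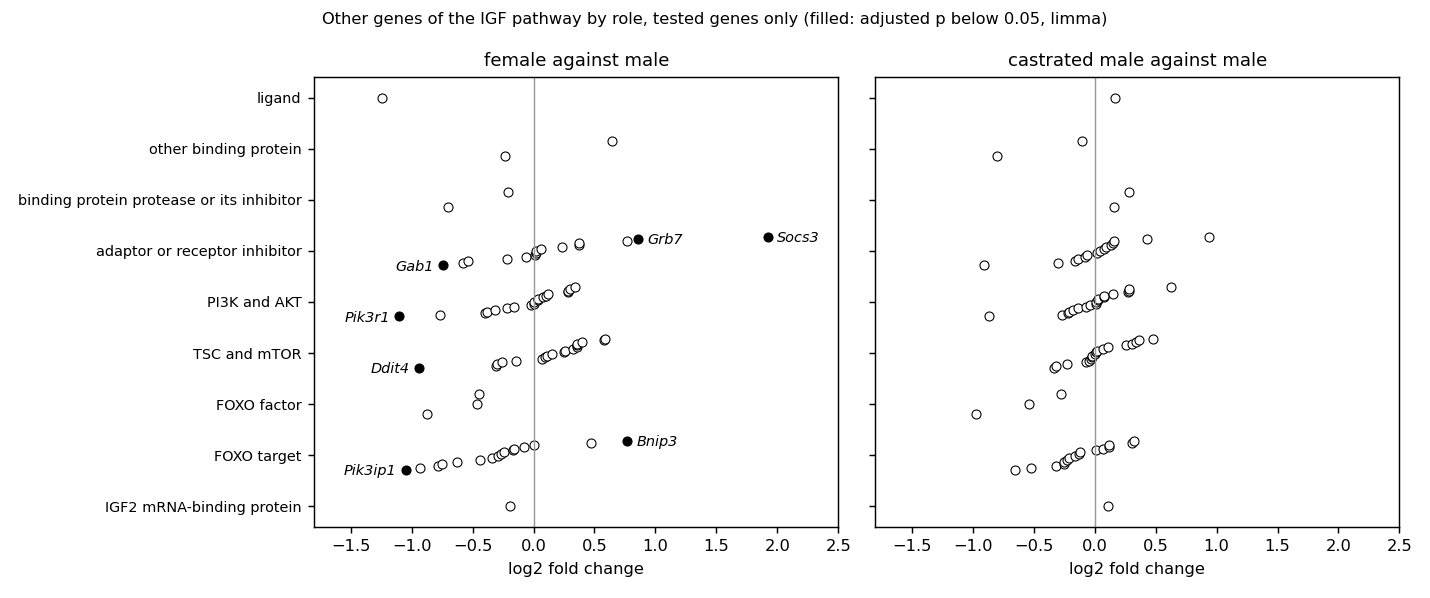
Log2 fold changes of the 77 tested pathway genes outside the 10, by role, in females against males (left) and castrated against intact males (right); filled and named points have an adjusted p below 0.05 (limma). The 7 filled points on the left run from Pik3r1 (-1.10) to Socs3 (1.92), and no point is filled on the right.

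Socs3, a feedback inhibitor of cytokine receptors that also binds the insulin receptor, had the largest change. It gave 15.6 and 16.7 CPM in male pools, 54.4 and 71.5 in female pools and 29.7 and 33.0 in castrated pools, so that the 3 groups did not overlap. Females exceeded males by a log2 fold change of 1.92 ± 0.17 (adjusted p = 0.00149), and Socs3 was called there under each of 15 other settings, with adjusted p-values from 0.00142 to 0.0261. Castrated males fell below females, with a log2 fold change of -0.98 ± 0.17 (adjusted p = 0.0360), a call lost without female replicate 2 (-0.79, adjusted p = 0.271) and without either castrated library. Castrated against intact males gave 0.94 ± 0.17 (adjusted p = 0.231).

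The 4 genes that fell in females relay or restrain PI3K and mTOR signalling. Pik3r1, the regulatory subunit that docks PI3K to phosphorylated IRS proteins, gave 297 and 242 CPM in male pools, 157 and 98.9 in female pools and 156 and 138 in castrated pools (females against males -1.10 ± 0.21, adjusted p = 0.0243). Gab1, another docking protein, went from 53.1 and 60.2 CPM in males to 36.0 and 31.5 in females (-0.74 ± 0.14, adjusted p = 0.0256). Pik3ip1, an inhibitor of PI3K, fell by 1.05 ± 0.23 on the log2 scale and Ddit4, an inhibitor of mTOR complex signalling, by 0.94 ± 0.21 (adjusted p = 0.0351 and 0.0388). Grb7, an adaptor of receptor kinases, rose by 0.86 ± 0.21 and Bnip3, a mitophagy receptor, by 0.77 ± 0.17 (adjusted p = 0.0470 and 0.0386). Without female replicate 2 none of these 6 was called, with adjusted p-values from 0.126 to 0.310. Leaving out either castrated library also left Socs3 as the only called gene of the 77.

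FOXO factors, which AKT inhibits, did not pass in any comparison. Foxo1 gave 20.3 and 18.1 CPM in male pools, 12.4 and 8.43 in female pools and 13.2 and 12.9 in castrated pools, with a log2 fold change of -0.87 ± 0.22 for females against males (adjusted p = 0.0571) and -0.54 ± 0.22 for castrated against intact males (adjusted p = 0.820). Foxo1 was called in females against males without female replicate 1. Foxo3 gave -0.46 ± 0.24 and -0.28 ± 0.24, and Foxo4, which is X-linked, -0.45 ± 0.33 and -0.97 ± 0.33, in the same comparisons. Foxo6 had 18 reads in all and was not tested. Of 19 listed FOXO target genes 16 were tested, of which Bnip3 rose and Pik3ip1 fell in females, with a median of -0.28. Under the 15 other settings Bnip3 was called in 7 and Pik3ip1 in 6. Of the 18 TSC and mTOR genes, all tested, 1 (Ddit4) was called, with a median of 0.20. Over all genes 6.10% were called and the median was -0.01.

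Igfbp2 had the smallest p of the 10 in females against males, and the tested genes nearest to it in pattern were Gm6206, Msx1 and Ybx1, with Pearson r of 0.993, 0.992 and 0.991 of log2(CPM + 0.5) over the 6 libraries. Gm6206 rests on 52 reads in all. Msx1, a homeobox transcription factor, gave 0.640 and 2.46 CPM in male pools, 8.41 and 7.41 in female pools and 5.92 and 8.08 in castrated pools, and Ybx1, a cold shock domain protein that binds RNA, gave 29.3 and 34.2, 48.4 and 48.2, and 46.0 and 46.2. These genes were picked from 15413 for their likeness, so the correlations only describe the libraries.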

How the data were processed

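Tools named in the submitters' processing notes are STAR 2.7.5a, HTSeq 0.11.1, Picard and FastQC, and builds GRCm38 and mm10. The annotation, strand setting and scaling step are not stated there. Each deposited value is a score: reads per gene scaled by the authors to a near equal sum in each library (19999024 to 19999732) and rounded. Within a column the scores are multiples of 1 step (2.07 to 2.38) for 100% of values within 0.5, against 42.4% to 48.9% of arbitrary whole numbers, and division by the step gave whole reads. The second male library is numbered 2 here, after its title, although its column carries a 3.

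TMM scaled the library sizes (factors 0.931 to 1.03). Genes with 1.16 CPM (10 reads at the median depth) in at least 2 libraries and 15 reads in all were tested. The main test was limma 3.58.1 (R 4.3.3) on log2(CPM + 0.5) with an intensity trend, 1 mean per group and all 6 libraries (3 residual and 5.74 prior degrees of freedom). P-values are two-sided, adjusted by the Benjamini-Hochberg method over 15413 genes, called below 0.05. Fold changes on this scale understate those of low genes. The alternatives tried were other pseudocounts, filters, scalings and fits, a replicate block, each library left out and a length correction. The procedure was also tested on simulated reads. These held no outlying library, so that test cannot speak to the weight of single libraries. Exon lengths and gene positions are from GENCODE M21 (GRCm38), and promoters from RefSeq (GRCm38.p6). Replicates differed by more than sampling noise (chi-square per degree of freedom 11.7 in males, 12.3 in females, 4.41 in castrated males).

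The members and lists were chosen with earlier results of these data known. Named are the 10 members, of the pathway list the ligands, other binding proteins, FOXO factors and called genes, and the 3 genes most like the member with the smallest p. Markers, the neighbours and overlapping genes, Insrr and the promoters shown were chosen after values were seen.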

Additional observations from a re-analysis of the deposited data

How the results depend on the processing

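Of 450 values of the 10 genes under 15 alternatives each, 412 kept their direction and side of the threshold, 10 lost a call, 6 gained one and 22 turned in sign; none of those 22 was called. Between females and males, where 2 members and 7 pathway genes were called, 0 and 1 were called without a filter on low values and likewise 0 and 1 without an intensity trend, and 1 and 1 in a fit of the 4 libraries compared. With single libraries left out the counts ran from 0 to 3 and from 1 to 13. In castrated against intact males, where 0 and 0 were called, single libraries left out gave 0 to 1 members and 0 pathway genes. In castrated males against females (0 and 1 called) the fit of 4 libraries called 1 member, the fits without a filter or without an intensity trend called 0 pathway genes, and single libraries gave 0 to 1 and 0 to 5. Over all genes the calls between females and males ran from 65 (without female replicate 2) to 1709 (without female replicate 1), with 103 without a filter. Fewer samples, or a prior fitted with other genes, enter these fits, and the cause of each shift was not tested. The planned count models on the recovered reads are not part of these results, because the deposited values are scaled and rounded scores, not counts. They had been run first: edgeR and DESeq2 called the same members as limma, except that DESeq2 also called Igfbp2 in castrated against intact males. Among the pathway genes DESeq2 called more than limma in each comparison. The values of those runs are not given here, so their calls are not counted as results.

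Signs turned near 0. With library size alone Igf2r gave -0.04 in females against males and 0.03 in castrated males against females, and Igfbp7 0.06 in the latter. With single libraries left out, the ranges that crossed 0 in females against males were -0.02 to 0.07 for Igf2r, -0.11 to 0.29 for Igfbp5, -0.10 to 0.42 for Irs2 and -0.04 to 0.20 for Igf1r. In castrated against intact males they were -0.07 to 0.00 for Igf1r, -0.07 to 0.03 for Igf2r and -0.10 to 0.13 for Irs2. In castrated males against females they were -0.09 to 0.01 for Igf2r, -0.23 to 0.20 for Igfbp7, -0.41 to 0.11 for Irs2, -0.24 to 0.01 for Igf1r, -0.01 to 0.17 for Igfbp3 and -0.47 to 0.01 for Igfbp6. With the length trend removed, an alternative chosen after seeing the data, Igfbp7 gave 0.05 there.

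The numbers 1 and 2 are shared by the groups, but nothing says that they pair the pools: same-numbered deviations correlated by -0.154, -0.0104 and 0.194 across 15413 genes. With the replicate number as a block, 2, 0 and 0 members and 5, 0 and 1 pathway genes were called in the 3 comparisons, in the order given above. Over all genes the block gave 153 calls in castrated males against females where the fit without it gave 259.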
